A study of Mus musculus with 10 samples.

Results

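The set described here is the machinery that cuts cytosolic proteins into peptides, carries the peptides into the endoplasmic reticulum and fits them onto MHC class I molecules. It holds 10 genes, chosen by name for their place in the pathway: the 3 inducible catalytic subunits of the immunoproteasome (Psmb8, Psmb9, Psmb10), the 2 subunits of the PA28 activator (Psme1, Psme2), the 2 chains of the peptide transporter TAP (Tap1, Tap2), tapasin (Tapbp), the trimming peptidase Erap1 and the class I transactivator Nlrc5. All 10 of them were among the 27151 genes of the table and passed the filter on low values (10 normalised reads in 4 or more libraries), which 17088 genes passed. The data are 10 bulk RNA-seq libraries from the tongue of C57BL/6J mice after exposure to 4NQO, a chemical carcinogen used to induce oral tumours. Of these, 4 came from mice given vehicle and 6 from mice labelled with the treatment SP2509, an inhibitor of the histone demethylase LSD1. Both groups carried the same genotype label and the same 4NQO exposure, and no group without 4NQO or with a deletion was included. The titles of the treated libraries read SP2509h, and the labels do not explain the h, nor give a dose, time, sex or age. Nothing in the labels ties each library to a separate mouse, and p-values therefore cover only the library-to-library spread, part of which may be technical.

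In cells exposed to interferon gamma, the constitutive catalytic subunits of the proteasome are replaced by their inducible counterparts, and the cut products then end more often in residues that class I molecules bind. TAP pumps these peptides into the endoplasmic reticulum, tapasin bridges TAP to empty class I molecules and favours stable cargo, and Erap1 shortens peptides that are too long. Nlrc5, itself induced by interferon gamma, raises transcription of class I genes and of several genes of this same set through a complex of RFX, CREB and NF-Y factors. In oral tumours, loss of these steps is a known route of escape from CD8+ T cells, and the comparison asks whether their transcripts differed between treated and vehicle tongues.

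The libraries held 9180844 to 14768955 whole reads in vehicle and 15748571 to 19375555 in SP2509, and mitochondrial genes took 35.3% to 52.1% of them in vehicle and at most 32.2% in SP2509. A member had between 71 and 1815 reads in a library. SP2509 replicates 1 and 2, and replicates 4 and 5, lay much closer to each other than other libraries of a group: the median absolute log2 difference between genes was 0.0519 and 0.0584 in these 2 pairs and 0.108 to 0.524 in the other 19 pairs within groups. Each close pair was therefore counted as 1 unit in means and SDs of normalised reads (SP2509, n = 4 units). SDs on the log2 scale were taken over all 6 SP2509 libraries, close pairs included. A fit over units stands beside the fit over 10 libraries. SP2509 replicate 6 stood apart from the other treated libraries, and the members' fold changes are given with and without it. Salivary gland markers summed to 309651 and 320280 normalised reads in SP2509 replicates 4 and 5 and to 744 or fewer in the other 8 libraries.

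Psmb9, Tap1, Psmb8 and Tap2 lie side by side in the MHC class II region of chromosome 17, over 34335 bases (GRCm38, chr17:34181987-34216321). Psmb9, on the minus strand, and Tap1 (chr17:34187553-34197225, plus strand) are arranged head to head, and their annotated exons share 212 bases. Psmb8 (chr17:34197721-34201454, plus strand) begins 495 bases after Tap1, and Tap2 (chr17:34203527-34216321, plus strand) begins 2072 bases after Psmb8. Tapbp lies on the same chromosome at chr17:33915899-33929292 (plus strand). Psme1 (chr14:55578123-55581529, plus strand) and Psme2 (chr14:55587441-55591113, minus strand) are 5911 bases apart. Psmb10 (chr8:105935735-105938444, minus strand) and Nlrc5 (chr8:94434356-94527272, plus strand) share chromosome 8, and Erap1 lies at chr13:74639568-74693201 (plus strand). All 10 are annotated as protein coding, and values were counted per gene.

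RefSeq promoter windows on GRCm38.p6, from 250 bases before the start to 50 after it, were matched for 8 members, all but Tap2 and Nlrc5. The windows of Tap1 and Psmb9 share 275 of their 300 bases, so the first window below is in effect the promoter of both genes. It is shown for that reason, and the Psmb8, Psme1 and Erap1 windows are shown because they hold the interferon motifs found among the members. Capitals mark the motif match, and positions are counted from the RefSeq start as 0. These starts differ from the ends of the gene coordinates given above, which come from GENCODE. The Psmb8, Psmb9, Psme1, Tapbp and Erap1 windows lie wholly inside the GENCODE spans of their genes.
Tap1 promoter, chr17:34187306-34187605, plus strand, CCAAT at -222: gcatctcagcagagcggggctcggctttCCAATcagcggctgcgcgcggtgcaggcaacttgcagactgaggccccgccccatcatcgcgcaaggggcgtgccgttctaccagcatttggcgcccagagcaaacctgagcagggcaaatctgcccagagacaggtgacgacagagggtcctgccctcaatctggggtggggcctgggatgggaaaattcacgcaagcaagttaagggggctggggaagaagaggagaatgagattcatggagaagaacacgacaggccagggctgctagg
Psmb8 promoter, chr17:34197945-34198244, plus strand, GAS match at -97: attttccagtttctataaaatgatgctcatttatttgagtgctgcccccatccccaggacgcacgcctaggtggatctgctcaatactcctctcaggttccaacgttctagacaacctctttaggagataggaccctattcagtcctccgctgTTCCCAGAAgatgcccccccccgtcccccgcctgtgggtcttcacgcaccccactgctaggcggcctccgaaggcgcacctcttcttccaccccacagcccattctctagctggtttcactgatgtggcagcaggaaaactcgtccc
Psme1 promoter, chr14:55578244-55578543, plus strand, ISRE core at 9: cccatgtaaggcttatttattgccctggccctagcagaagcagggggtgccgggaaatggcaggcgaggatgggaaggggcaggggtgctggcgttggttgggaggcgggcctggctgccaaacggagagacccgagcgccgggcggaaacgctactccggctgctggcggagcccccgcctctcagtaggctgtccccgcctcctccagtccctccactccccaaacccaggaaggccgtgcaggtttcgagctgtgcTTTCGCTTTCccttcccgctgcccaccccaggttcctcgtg
Erap1 promoter, chr13:74639603-74639902, plus strand, ISRE core at -4: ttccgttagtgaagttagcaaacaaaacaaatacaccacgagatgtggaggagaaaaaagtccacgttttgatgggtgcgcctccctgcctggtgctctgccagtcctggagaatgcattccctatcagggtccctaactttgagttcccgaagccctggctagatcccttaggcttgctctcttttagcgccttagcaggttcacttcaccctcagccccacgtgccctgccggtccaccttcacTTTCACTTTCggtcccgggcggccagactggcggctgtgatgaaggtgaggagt
Both strands were searched for 5 motifs. The core of the interferon-stimulated response element (GAAA, any 2 bases, GAAA, on either strand) was found in the Erap1 and Psme1 windows, 2 of 8 members, and in 3.44% of 32851 RefSeq promoters. The gamma-activated site (TTCNNNGAA) was found in the Psmb8 window, 1 of 8, and in 8.3% of all promoters. The NF-Y box (CCAAT) was in the windows of Tap1, Psmb9 and Tapbp, where Tap1 and Psmb9 share a single site, and in 37.4% of all promoters. The kappaB motif and the CRE (TGACGTCA) were in none of the 8 windows and in 8.46% and 1.79% of all promoters. These are matches of letters and not measured binding.

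In vehicle tongues the PA28 subunits were the most abundant members and the transactivator and the trimming peptidase the least. Compared per kilobase of the principal transcript, levels in vehicle (normalised reads per kb, mean ± SD, n = 4) were 679 ± 110 for Psme1 and 663 ± 70.0 for Psme2, a pair that did not differ beyond its spread. Psmb10 followed at 317 ± 19.7 and Tapbp at 287 ± 42.8, also with overlapping ranges. Psmb8 (173 ± 47.3), Tap1 (162 ± 26.4), Tap2 (160 ± 18.4) and Psmb9 (152 ± 41.4) came next, and their ranges all overlapped. Nlrc5 (38.2 ± 9.96) and Erap1 (29.2 ± 4.32) were the lowest, with overlapping ranges. The constitutive subunits stood at 2331 ± 340 for Psmb6, 1314 ± 245 for Psmb5 and 150 ± 25.9 for Psmb7 per kb. On this scale Psmb9 and Psmb8 were below the constitutive subunit each replaces in all 4 vehicle libraries, and Psmb10 was above Psmb7. Psmb7 itself stood far below Psmb6 and Psmb5, and how fully its reads were counted was not tested.

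Between SP2509 and vehicle, 8 of the 10 members had a higher mean log2 level in SP2509, but no member passed the test over all genes. The test was limma on log2(normalised value + 1) over 10 libraries, with p-values adjusted over 17088 genes by the Benjamini-Hochberg method, and a gene was called at an adjusted p under 0.05. By this rule 0 of 10 members were called, where 9.1% of all tested genes were called (4.95% higher, 4.15% lower), and 3 members (Psmb10, Tapbp, Erap1) had an unadjusted limma p under 0.05, as did 28.0% of all tested genes. edgeR on the recovered reads called 0 members (background 8.75%), and DESeq2 called 1, Psmb10 (background 17.6%). With the close pairs merged, limma called 0 members and 0% of all genes, and 1 member, Psmb10, had an unadjusted p under 0.05, as did 21.3% of all genes. Without SP2509 replicate 6 limma called 2 members, Psmb10 and Tapbp, both higher (background 20.2% in either direction, 11.5% higher). With library weights, which lower the part of libraries that deviate most, it called 5 (background 24.3%): Psmb8, Psmb10, Tap1, Tapbp and Erap1. The median log2 fold change of the 10 members was 0.32, beside 0.02 over all tested genes, and a positive value was found in 51.9% of all tested genes. Without SP2509 replicate 6 the members' median was 0.49, again beside 0.02 over all tested genes. Only Psmb10 had all 6 SP2509 libraries above all 4 vehicle libraries, a pattern seen in 6.54% of all tested genes, and no member had all SP2509 libraries below all vehicle libraries (5.11% of all). The largest fold among the members was 1.51 (Nlrc5), and in simulated data the limma rule recovered 1.3% of 1.5-fold changes. The simulation changed fewer genes than were called here and drew all libraries independently, so this share need not hold for these data. A gene without a call is not shown to be unchanged. In bulk tissue, fewer cells of a type and less RNA per cell cannot be told apart.

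Nlrc5, the transactivator of class I genes, was at 202, 344, 360 and 251 normalised reads in vehicle replicates 1 to 4. In SP2509 it was at 696, 830 and 745 in replicates 1 to 3 and at 268, 263 and 200 in replicates 4 to 6. The first 3 SP2509 libraries were far above every vehicle library, replicates 4 and 5 lay inside the vehicle range, and replicate 6 lay just below it. The mean was 289 ± 75.4 (SD, n = 4) in vehicle and 493.5 ± 302 (SD, n = 4 units) in SP2509. In the fit over 10 libraries the log2 fold change of Nlrc5 was 0.60 ± 0.41 (SE), with a limma adjusted p of 0.355. With the close pairs merged it was 0.56 ± 0.43 (limma adjusted p = 0.469). Its SD on the log2 scale was 0.91 over the 6 SP2509 libraries and 0.39 over the vehicle libraries, while the median over 8902 tested genes of like abundance (mean 100 to 1000) was 0.24 and 0.22. The value without SP2509 replicate 6 was 0.82 ± 0.40 (limma adjusted p = 0.178).

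Psmb8, also called LMP7, carries the chymotrypsin-like site of the immunoproteasome. It was at 189, 301, 374 and 265 normalised reads in vehicle, and its lowest, median and highest SP2509 values were 199, 399 and 562. Replicates 1 to 3 of SP2509 were above all vehicle libraries and replicates 4 to 6 fell within the vehicle range. The log2 fold change was 0.40 ± 0.28 (limma adjusted p = 0.365), and with 1 library left out it ran from 0.22 (without vehicle replicate 1) to 0.57 (without SP2509 replicate 6, limma adjusted p = 0.0935). Psmb9, or LMP2, which takes the place of the caspase-like subunit, was at 146, 210, 280 and 188 in vehicle and had a lowest, median and highest value of 137, 273 and 397 in SP2509. Replicates 1 to 3 of SP2509 were again above all vehicle libraries, replicates 4 and 5 were within their range, and replicate 6 was under it. Its log2 fold change was 0.34 ± 0.30 (limma adjusted p = 0.504), and it ran from 0.19 without vehicle replicate 1 to 0.51 without SP2509 replicate 6 (limma adjusted p = 0.188).

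Psmb10, or MECL-1, the inducible partner for the trypsin-like site, was the steadiest of the 3 inducible subunits within each group. It was at 386, 401, 438 and 435 normalised reads in vehicle and at 551, 577, 498, 487, 482 and 496 in SP2509 replicates 1 to 6. All 6 SP2509 libraries were above all vehicle libraries, and replicate 6 lay in the middle of its group. The mean was 415 ± 25.8 (SD, n = 4) in vehicle and 511 ± 36.0 (SD, n = 4 units) in SP2509. The log2 fold change was 0.31 ± 0.10, with an adjusted p of 0.0627 by limma, 0.0533 by edgeR and 0.0283 by DESeq2. Without SP2509 replicate 6 the log2 fold change was 0.32 ± 0.10 with a limma adjusted p of 0.0358. The limma adjusted p was 0.175 with the close pairs merged, and leaving out any other library left the limma value above the threshold, at up to 0.158. Scaled on reads outside mitochondrial genes, the log2 fold change of Psmb10 was 0.16, while the median of all tested genes shifted to -0.13.

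The PA28 ring, built from Psme1 and Psme2, binds the ends of the proteasome core and opens it to peptides. Psme1 was at 708, 818, 885 and 607 normalised reads in vehicle and ranged from 810 through a median of 831 to 897 in SP2509. Only replicate 3 of SP2509 exceeded the highest vehicle library, and the treated libraries were the tighter group (SD on the log2 scale 0.06 against 0.24). Its log2 fold change was 0.17 ± 0.11 (limma adjusted p = 0.337). It was 0.16 without SP2509 replicate 6 and ran from 0.073 without vehicle replicate 4 to 0.25 without vehicle replicate 3. Psme2 was at 653, 677, 683 and 539 in vehicle and had a lowest, median and highest value of 478, 608 and 724 in SP2509. The groups overlapped almost fully, with a log2 fold change of -0.08 ± 0.13 (limma adjusted p = 0.722), which ran from -0.16 without vehicle replicate 4 to -0.014 without SP2509 replicate 6 (limma adjusted p = 0.945). A near-identical gene, Psme2b, matches 82.5% of the Psme2 transcript at 99.4% identity and was listed at up to 345 normalised reads, so reads of the 2 genes may have been split. Their sum was 722 to 906 in vehicle and 702 to 953 in SP2509, again overlapping.

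Tap1 and Tap2 form the transporter as a pair of unlike chains, each with its own ATP-binding domain. Tap1 was at 443, 527, 555 and 384 normalised reads in vehicle and at 958, 867, 695, 492, 471 and 280 in SP2509 replicates 1 to 6. Replicates 1 to 3 were above every vehicle library, replicates 4 and 5 were within the vehicle range, and replicate 6 was under it. The log2 fold change was 0.29 ± 0.29 (limma adjusted p = 0.551), and it ran from 0.15 without SP2509 replicate 1 to 0.50 without SP2509 replicate 6 (limma adjusted p = 0.124). Tap2 was at 510, 544, 642 and 506 in vehicle, and at 684, 643, 496, 446, 521 and 329 in SP2509. Only replicates 1 and 2 exceeded the vehicle libraries, replicate 2 by less than 1 normalised read, while replicates 3, 4 and 6 were below all of them. Its log2 fold change was -0.12 ± 0.18 (limma adjusted p = 0.723), and without SP2509 replicate 6 it was 0.01 ± 0.14 (limma adjusted p = 0.974).

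Tapbp, tapasin, holds empty class I molecules next to TAP. It was at 651, 849, 915 and 910 normalised reads in vehicle and at 1352, 1397, 1286, 1027, 992 and 795 in SP2509 replicates 1 to 6. All SP2509 libraries but replicate 6 were above every vehicle library. The mean was 831 ± 124 (SD, n = 4) in vehicle and 1116 ± 264 (SD, n = 4 units) in SP2509. In the fit over 10 libraries the log2 fold change was 0.44 ± 0.17 (limma adjusted p = 0.116). With the close pairs merged it was 0.41 ± 0.19 (limma adjusted p = 0.255). Without SP2509 replicate 6 the log2 fold change was 0.54 ± 0.14 with a limma adjusted p of 0.0185.

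Erap1, the endoplasmic reticulum peptidase (ERAAP in mice), trims the amino ends of peptides. It was at 132, 187, 162 and 178 normalised reads in vehicle, and its lowest, median and highest SP2509 values were 168, 219 and 271. Replicates 1, 2, 3 and 5 of SP2509 were above all vehicle libraries, and replicates 4 and 6 were within their range. The log2 fold change was 0.40 ± 0.17 (limma adjusted p = 0.147), and without SP2509 replicate 6 it was 0.47 ± 0.16 (limma adjusted p = 0.0522). Of its exon bases, 834 are shared with Cast on the opposite strand, and the strand setting of the counting is not given in the sources used here.

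**Figure D1:**
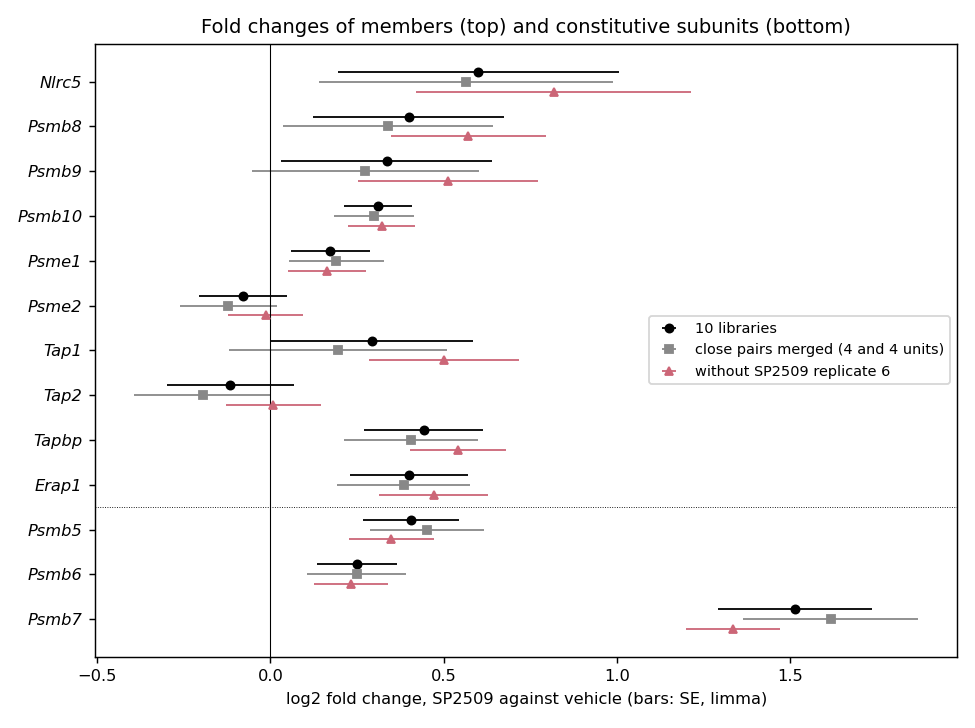
Log2 fold change of SP2509 against vehicle (horizontal axis) with its SE from limma, for the 10 members above the dotted line and the 3 constitutive subunits below it. Circles use 10 libraries, squares the merged close pairs and triangles the libraries without SP2509 replicate 6; the members lie between -0.20 and 0.82, and Psmb7 stands at 1.51 in the 10-library fit.

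Several members varied widely among the SP2509 libraries. SP2509 replicates 1, 2 and 3 each exceeded the highest vehicle library in 8 of 10 members, replicates 4 and 5 in 3 each, and replicate 6 in 1, Psmb10. Replicate 6 was under the lowest vehicle library in 5 members (Psmb9, Psme2, Tap1, Tap2, Nlrc5), and replicates 3 and 4 in 1 each, Tap2. The ratio of the highest to the lowest SP2509 library was 4.13 for Nlrc5, 3.41 for Tap1, 2.89 for Psmb9 and 2.82 for Psmb8, but 1.20 for Psmb10 and 1.11 for Psme1. On the log2 scale the SDs of Tap1, Psmb9 and Psmb8 over SP2509 were 0.66, 0.63 and 0.55, above the median of 0.24 for genes of like abundance, and those of Psmb10 and Psme1 (0.11 and 0.06) were below it.

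Members that share a position or a role did not always share a profile. Each gene was centred on its mean over 10 libraries, and 2 genes were compared by the root mean square of their log2 differences, a description over libraries that include the close pairs. Over the 45 pairs of members this difference ran from 0.107 to 0.716 with a median of 0.328. The closest pair was Tapbp with Erap1 (0.107), followed by Psmb8 with Psmb9 (0.123) and Psmb10 with Psme1 (0.180), and Psmb9 with Tap1, which share a promoter window, ranked 5 of 45 (0.193). The farthest was Psme2 with Nlrc5 (0.716). Reads in the 212 shared exon bases of Psmb9 and Tap1 cannot be assigned without the strand setting.

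**Figure D2:**
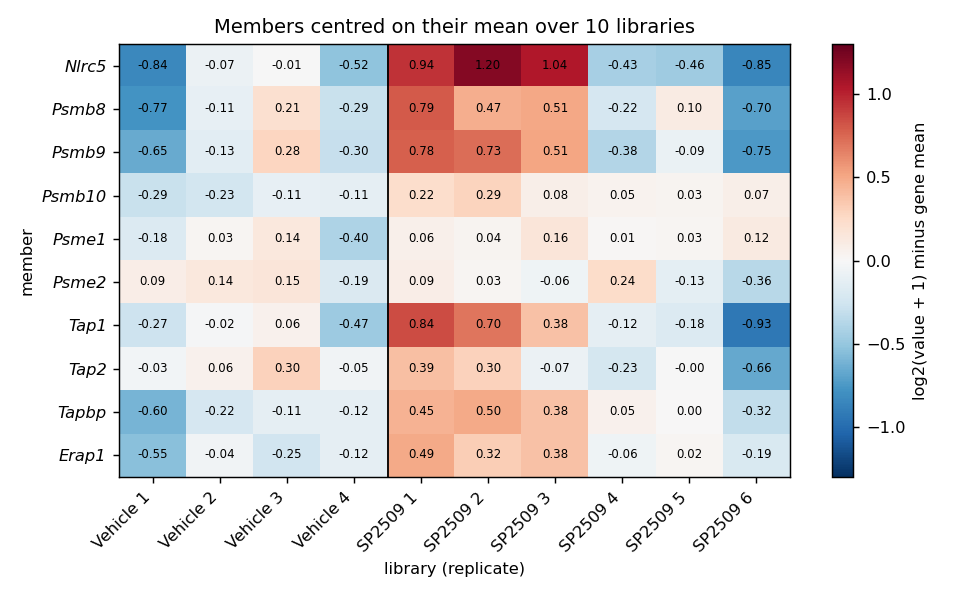
Log2(normalised value + 1) of each member (rows) minus its mean over the 10 libraries (columns, vehicle left of the line), as printed in each cell; red is above and blue below the mean. Nlrc5 spans -0.85 to 1.20, whereas Psmb10 spans -0.29 to 0.29 and is above 0 in every SP2509 library.

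Epithelial and muscle markers of tongue tissue were abundant in all 10 libraries, and the epithelial sum was highest in SP2509 replicates 1 to 3. Keratinocyte markers (6 genes) summed to 217054, 210455 and 223384 normalised reads in SP2509 replicates 1 to 3, to 112687, 111647 and 45317 in replicates 4 to 6, and to 81983 to 117263 in vehicle, and 0 of 6 were called. Krt5, Krt14 and Krt13 made up most of this sum, and Krt15 of the same list, at 4749 in SP2509 replicate 3, was below vehicle replicates 1 to 3 (5307, 4949 and 6850). Skeletal muscle markers (6 genes, 0 called) were highest in replicate 6 at 539576, while the other SP2509 libraries held 200115 to 275461 and vehicle 105031 to 256114. The part of these in the members' spread was not tested. Pan-leukocyte markers (8 genes, 0 called) summed to 1062 to 1376 in vehicle and 1034 to 1292 in SP2509. T cell markers (8 genes, 3 tested, 0 called) summed to 35.3 to 130 and 59.4 to 103, with Ifng at 3.71 or less in vehicle and 5.81 or less in SP2509, and NK cell markers (none tested) to 0 to 16.9 and 4.98 to 13.2. Macrophage markers (8 genes, 1 higher) summed to 1227 to 2392 and 1833 to 3463, and dendritic cell markers (7 genes, 1 lower) to 417 to 541 and 252 to 383. B cell sums (5 genes, 2 tested, 1 lower) were 233 to 419 and 96.9 to 195.

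Each inducible subunit was next set against the constitutive subunit it replaces, since the pair competes for 1 place in the proteasome. The Psmb10/Psmb7 ratio of normalised reads was 2.81, 1.91, 2.47 and 2.58 in vehicle and 1.33, 1.16, 1.07, 1.21, 1.21 and 0.543 in SP2509. Every SP2509 library was under every vehicle library. The difference in mean log2 ratio was -1.20, a 0.434-fold level, with an exact permutation p of 0.00476 (two-sided, the smallest of 210 regroupings) and 0.0143 adjusted over the 3 ratios. With the close pairs merged it was -1.32 (exact permutation p = 0.0286, the smallest that 70 regroupings allow, and 0.0857 adjusted). Leaving out each library in turn gave -1.32 to -1.01, with an exact permutation p adjusted over 3 of at most 0.0357.

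The lower ratio came with a higher level of Psmb7 and not with a lower one of Psmb10. Psmb7, the constitutive trypsin-like subunit, was at 137, 210, 177 and 169 normalised reads in vehicle and at 415, 496, 468, 402, 398 and 912 in SP2509. All SP2509 libraries exceeded all vehicle libraries, and replicate 6 was far above the rest. Its log2 fold change was 1.51 ± 0.22 (limma adjusted p = 0.0118, and 0.0718 with the close pairs merged), and it was 1.34 ± 0.14 without SP2509 replicate 6 (limma adjusted p = 0.000516). Psmb7 shares 405 of its exon bases (11.8%) with Nek6 on the opposite strand, and reads there cannot be separated without the strand setting. Nek6 was listed at a mean of 150 and at most 175 normalised reads over the 10 libraries. The part of such reads in the Psmb7 values, and how fully Psmb7 was counted, were not tested.

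The other 2 ratios showed no such separation. Psmb8/Psmb5 was 0.204, 0.206, 0.325 and 0.224 in vehicle and had a lowest and highest value of 0.105 and 0.374 in SP2509, with a log2 difference of -0.01 (exact permutation p = 0.981). Psmb9/Psmb6 was 0.0872, 0.0944, 0.148 and 0.115 in vehicle and 0.0589 to 0.186 in SP2509, with a log2 difference of 0.09 (exact permutation p = 0.824). In both, SP2509 replicate 6 was the lowest of the 10 libraries and replicate 1 or 2 the highest. Of the constitutive subunits, Psmb5 had a log2 fold change of 0.41 ± 0.14 (limma adjusted p = 0.0806) and Psmb6 of 0.25 ± 0.12 (limma adjusted p = 0.183).

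**Figure D3:**
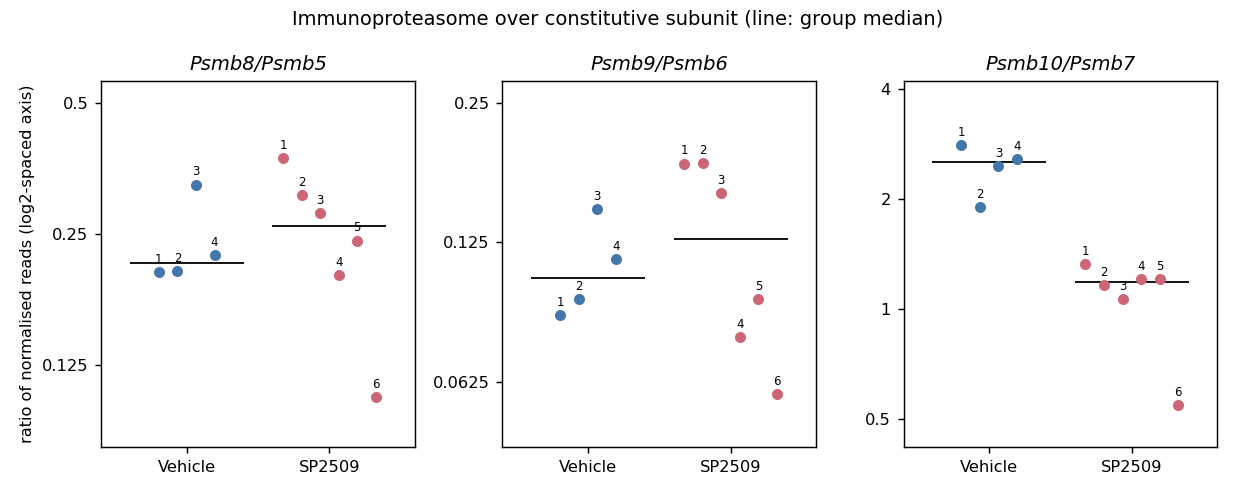
Ratio of normalised reads of an inducible subunit to its constitutive counterpart in each library (vertical axes spaced by log2), with replicate numbers and group medians. Psmb10/Psmb7 is 1.91 to 2.81 in vehicle and 0.543 to 1.33 in SP2509, while the groups overlap in the other 2 panels.

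Around the members, the other genes of the pathway were counted in 7 lists by the same limma rule, against the background of 4.95% higher and 4.15% lower. Of 7 tested constitutive subunits and proteasome regulators, 2 rose and 0 fell, with a median log2 fold change of 0.40: Psmb7, above, and Psme3, which forms the nuclear PA28 gamma ring (0.52 ± 0.11, limma adjusted p = 0.0184). Psmf1, an inhibitor of the 20S core, was 0.40 ± 0.12 (limma adjusted p = 0.0551). Of 7 peptidases that trim or destroy peptides outside the endoplasmic reticulum, 1 rose and 0 fell (median 0.23), the leucine aminopeptidase Lap3 (0.62 ± 0.11, limma adjusted p = 0.0125).

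Of 5 partners in the loading complex, 2 rose and 0 fell (median 0.61). They were the lectin chaperones Canx (0.61 ± 0.10, limma adjusted p = 0.0118) and Calr (0.87 ± 0.23, limma adjusted p = 0.0365), which hold newly made glycoproteins, class I heavy chains among them. Calr was highest in the gland-rich SP2509 replicates 4 and 5, at 4839 and 5024 normalised reads, while other treated libraries held 2290 to 3585 and vehicle 1704 to 1941. Pdia3, the thiol oxidoreductase of the complex, was 0.63 ± 0.28 (limma adjusted p = 0.161). It too was highest in SP2509 replicates 4 and 5, at 5220 and 5098 normalised reads. Other treated libraries held 1773 to 3563 and vehicle 1719 to 2379. Of 11 class I chains, 2 rose and 0 fell (median 0.61), the non-classical H2-T22 (0.62 ± 0.16, limma adjusted p = 0.0326) and H2-T23 (0.49 ± 0.14, limma adjusted p = 0.0434). H2-T23 lost its call when any 1 of the 9 libraries other than SP2509 replicate 6 was left out (limma adjusted p up to 0.113). H2-T22 did so with any of these but vehicle replicate 3 and SP2509 replicate 4 (up to 0.105 by limma), and Calr with any but SP2509 replicates 1 and 2 (up to 0.0965 by limma). Without SP2509 replicate 6 the counts of higher genes in these 4 lists were 3, 2, 3 and 6, where 11.5% of all tested genes were called higher. With the close pairs merged they were 0 in all 7 lists and 0 over all tested genes.

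Upstream of the members, no gene passed in the fit over 10 libraries. Of 9 class I promoter partners of Nlrc5 (RFX, NF-Y and CREB factors and the related class II transactivator Ciita), 0 were called with a median of 0.04, and Ciita was at -0.78 ± 0.26 (limma adjusted p = 0.0794). Of 11 genes listed for interferon gamma signalling (receptors, kinases, transcription factors and an inhibitor of the kinases), 0 were called with a median of 0.07. Among these, Jak1, the receptor's kinase, was 0.28 ± 0.09 (limma adjusted p = 0.0662) and Irf1 was -0.19 ± 0.11 (limma adjusted p = 0.272). Of 5 NF-kappaB subunits, 0 were called with a median of 0.10. Without SP2509 replicate 6 the medians of these 3 lists were 0.086, 0.12 and 0.095. In that fit 1 gene, Jak1, was called higher (limma adjusted p = 0.0436), as were 11.5% of all tested genes.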

How the data were processed

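Poly-A RNA of tongue was sequenced in 4 vehicle and 6 SP2509 libraries. Random hexamers primed the cDNA, per the labels' protocols. HISAT2, featureCounts and mm10 appear in the submitters' processing notes, without versions. The deposited signal values are normalised read counts: 100% of them were whole multiples, to within 0.01, of 1 unit per library, which gave back whole reads. This unit was 0.898 to 1.85 normalised reads for vehicle libraries and 0.727 to 0.873 for SP2509, so vehicle values are coarser.

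Groups were compared with limma 3.58.1 (R 4.3.3, trend, robust, two-sided) on log2(value + 1), whose fold changes understate low genes, for the 17088 genes that reached 10 in 4 or more libraries. edgeR 4.0.16 and DESeq2 1.42.0 were run on whole reads. Other scalings, filters, pseudocounts, library weights, merged close pairs and each library left out were alternatives. The limma rule was tested on simulated libraries in which 200 of 27151 genes were changed, fewer than were called in the data. These libraries were drawn independently, with no close pairs and no library set apart. The rule recovered 1.3% of 1.5-fold changes, 50% of 2-fold changes and 98.4% of 4-fold changes, shares that need not hold for the data.

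Coordinates come from GENCODE M21 and promoters from RefSeq. The members, lists and alternatives were chosen with earlier results of these data known. Named genes are all members, the 3 constitutive counterparts, the 2 to 4 genes of smallest p in each list and the 6 genes most like the members' mean profile. A gene that this rule takes is not reported here.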

Additional observations from a re-analysis of the deposited data

Results flagged for a closer look

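Of 32 groups checked over 16 quantities, 3 held a library far from the others of its group, and chance alone gives about 1 in 20 groups. Psmb7 in SP2509 replicate 6 was at 912 normalised reads, beside 398 to 496 in the other 5 SP2509 libraries. The Psmb10/Psmb7 ratio in the same library was 0.543, beside 1.07 to 1.33 in the others, and uses the same Psmb7 value. The Psmb8/Psmb5 ratio in vehicle replicate 3 was 0.325, beside 0.204 to 0.224 in the other vehicle libraries.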

How the results depend on the processing

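Over 24 alternatives drawn from the same libraries, 240 member results kept direction and side of the threshold in 222 cases, 13 gained a call and 5 reversed. No member was called in the 10-library fit, so no call could be lost. Among the members, the count of higher calls was 0 in the 10-library fit, 1 with a filter of 50, with TMM scaling, with DESeq2 and at an adjusted p under 0.1, 5 with library weights and 0 to 2 without each library; no member was called lower. With TMM scaling and the filter of 50, Psmb10 passed at 0.37 and 0.31, with DESeq2 at 0.30, and without SP2509 replicate 6 it and Tapbp passed (ranges over left-out libraries 0.28 to 0.34 and 0.33 to 0.54, and for Tap2 -0.20 to 0.00814). Library weights called Psmb8 (0.64), Psmb10 (0.33), Tap1 (0.73), Tapbp (0.54) and Erap1 (0.51), and turned Psme2 to 0.0467 and Tap2 to 0.0975 (log2).

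Same replicate numbers did not pair the libraries (correlations of deviations -0.20 to 0.13), and with the replicate block, which rests on replicates 1 to 4 of each group, 3 members were called (11.1% of all genes), Tap1 (0.63), Tapbp (0.61) and Nlrc5 (1.05), Psme2 and Tap2 were at 0.0259 and 0.0284, and 12 genes of the 7 other lists rose.

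Of those 7 lists together, 7 genes rose and 0 fell; higher counts were 3 scaled on reads outside mitochondrial genes, 4 with limma without trend, 18 with library weights, 0 with merged pairs, 3 without SP2509 replicates 4 and 5, 12 with DESeq2, 13 at an adjusted p under 0.1 and 4 to 15 without each library. Lower counts were 1 with reads outside mitochondrial genes, weights, without replicates 4 and 5, DESeq2 and the threshold of 0.1, and 0 to 1 without each library.

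Over all tested genes, 846 rose and 709 fell. Higher calls were 553 with no filter, 1288 with TMM, 296 outside mitochondrial genes, 490 without trend, 2381 with weights, 0 merged, 219 without SP2509 replicates 4 and 5, 1606 with DESeq2, 1713 at 0.1 and 171 to 1971 without each library. Lower calls were 1442 outside mitochondrial genes, 1778 with weights, 0 merged, 156 without replicates 4 and 5, 1394 with DESeq2, 1388 at 0.1 and 107 to 1488 without each library. Quantile scaling gave 666 higher and 1060 lower. The members' median minus that of all genes was 0.30 in the 10-library fit and 0.25 to 0.30 over the 3 other scalings, and 0.47 without SP2509 replicate 6. The members' median itself was 0.32 in the 10-library fit, 0.38 with TMM, 0.24 with quantile scaling and 0.17 outside mitochondrial genes. Members with an unadjusted limma p under 0.05 numbered 3, 3, 1 and 0 in these 4 fits (28.0%, 28.7%, 27.4% and 27.7% of all tested genes).

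The Psmb10/Psmb7 difference was -1.32 with merged pairs, -1.31 without SP2509 replicates 4 and 5, and -1.32 to -1.01 without each library. It passed the threshold in neither of the first 2 settings after adjustment over 3 ratios. Both allow only 70 regroupings, with a smallest exact permutation p of 0.0286. A single ratio at that floor cannot pass after adjustment over 3 (0.0857 with merged pairs), so these settings do not weigh on the ratio. Psmb8/Psmb5 was 0.0362 without replicates 4 and 5 and -0.14 to 0.22 without each library, and Psmb9/Psmb6 -0.0506 to 0.28. Nfkb2 turned to -0.0485 outside mitochondrial genes and to -0.00253 without replicates 4 and 5, and Relb to 0.0303 with TMM, 0.0249 with weights, 0.0269 without replicates 4 and 5, 0.00232 with edgeR and -0.0805 to 0.0435 without each library. The cause of these changes was not tested. Vehicle libraries were the shallower group, and the lowest member value rests on 71 reads.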

Other observations

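The transcript ratio of the 2 transporter chains, chosen after its values were seen and given with no test, was 0.869, 0.969, 0.864 and 0.760 (Tap1 over Tap2, normalised reads) in vehicle replicates 1 to 4. In SP2509 it was 1.40, 1.35, 1.40, 1.10, 0.905 and 0.851 in replicates 1 to 6. Replicates 1 to 4 were above every vehicle library, and replicates 5 and 6 were within the vehicle range.

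The mean profile of the 10 members over the 10 libraries was compared with that of 11839 other named genes by the root mean square of centred log2 differences. The closest were Rab31 (0.0573), a small GTPase of vesicle traffic, the cold-inducible RNA-binding gene Rbm3 (0.120), Rapgef5 (0.135), Dse (0.136), Oas2 (0.142), an interferon-induced oligoadenylate synthetase, and the helicase gene Dhx9 (0.146). Rab31 was at 150, 187, 225 and 177 normalised reads in vehicle and at 282, 271, 279, 190, 196 and 152 in SP2509. Like most members it was high in SP2509 replicates 1 to 3, and it did not pass the test (log2 fold change 0.28 ± 0.20, limma adjusted p = 0.378). Among so many genes some match closely by number alone, and likeness was not tested.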
